A study of Mus musculus with 2 samples.

Results

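The 41 genes described here encode proteins of the DNA damage response and of DNA repair. They were taken by name from a fixed list and fall into 7 groups by role: ATR signalling, ATM signalling with p53, the chromatin response with 53BP1, end joining, homologous recombination, the Fanconi pathway with its nucleases, and repair linked to AID with PARP. All 41 were found among the 20298 protein-coding genes with at least 50 reads in a library. Each gene was counted with 2 kb on either side.

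The measurement is END-seq, in which an adapter is joined to the ends of broken DNA inside agarose plugs, and a sequenced read begins at the break. The value of a gene is therefore a number of break ends in its DNA and says nothing about its expression. The cells were splenic B cells left after removal of CD43-positive cells, from mice 4 to 8 weeks old. The S-phase group was activated by 25 ng/mL of the cytokine IL-4 and 1 µg/mL of anti-CD40, an antibody to a costimulatory receptor of B cells, over 24 to 28 h. The G1 group was quiescent and had neither. Both titles carry "ATR+c", which the labels do not explain, and neither genotype nor strain is stated in the sources used here. The series is meant to map breaks with a single end that arise during replication, without added damage. There was 1 library in each group, so no difference has a replicate check and no test was possible. S phase and activation cannot be told apart, and the cell type could not be checked, because reads of genomic DNA carry no marker levels.

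Cells sense broken or stalled DNA through a pair of related kinases. ATR responds to single-stranded DNA at stalled forks and ATM to double-strand breaks, and both signal through checkpoint kinases and p53. Breaks are then rejoined directly by end joining or copied from a sister chromatid by homologous recombination. In activated B cells the same factors also handle the breaks that AID, the deaminase of class switching, starts in antibody genes.

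The libraries held 21997695 S-phase and 28933109 G1-phase reads, and the 41 genes took 22979 and 27881 of them, 0.112% and 0.104% of the reads on chromosomes 1 to 19. Per gene this was 91 to 2270 reads in S phase (median 429) and 107 to 3180 in G1 phase (median 508). Ratios are given throughout as S phase divided by G1 phase, each scaled to its total on chromosomes 1 to 19. Because the G1 library was deeper, equal read counts give a ratio of 1.31. The intervals in parentheses are conditional exact 95% intervals of 2 Poisson counts. They cover counting error only, and reads stacked on one position, 2.84 per position in S phase and 3.84 in G1 phase on average, make them too narrow.

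As a class, the repair genes stood close to other genes. Their median log2 ratio was 0.18 (quartiles -0.08 and 0.35, range -0.42 to 0.83), beside 0.13 over all protein-coding genes. Their summed reads gave a ratio of 1.08 (1.06 to 1.098), beside 1.05. A log2 ratio above 0 was found for 29 of the 41, and for 66.8% of all genes. A gene was called higher in S phase when its ratio exceeded 1 by 25% or more, and lower at a ratio of at most 0.8. By this rule of size 11 repair genes were higher (29.0% of all genes) and 2 were lower (9.81% of all genes), and 28 were neither. The counting interval lay above 1 for 19 (37.6% of all genes, and 41.8% of the genes within the read range of these members), below 1 for 5 (11.4%) and held 1 for 17. These shares are near the background. The number called higher was 5 with the median gene set to 1 and 3 against the surrounding megabase, where 18.5% of all genes were higher in either case.

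**Figure D1:**
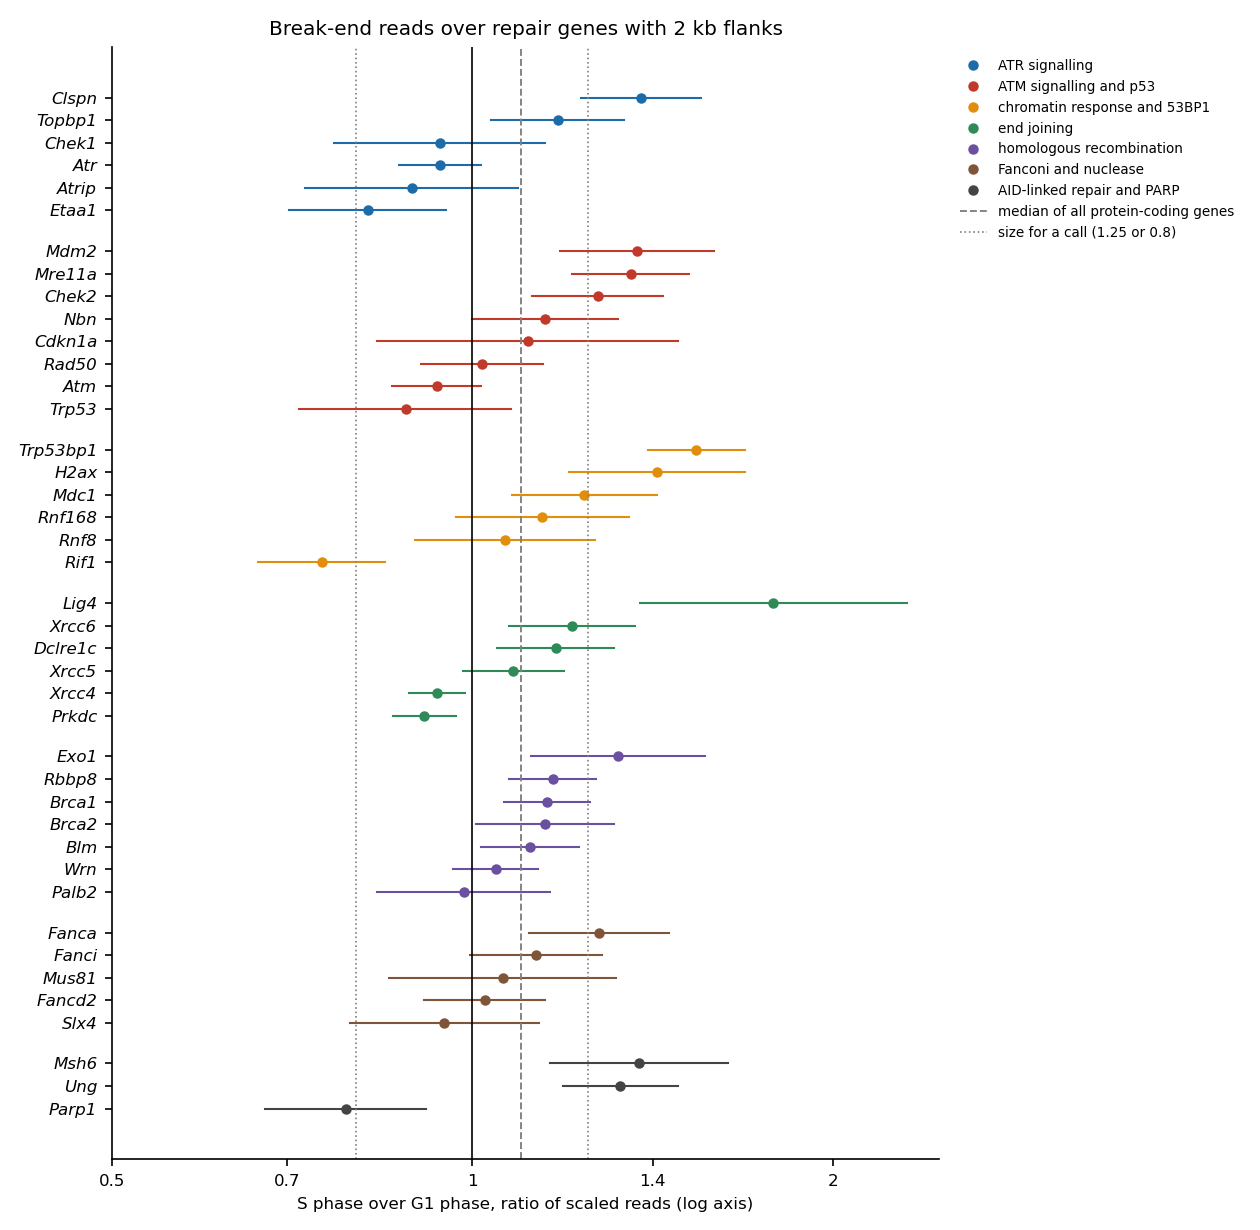
Ratio of scaled break-end reads, S phase over G1 phase, on a logarithmic axis for each of the 41 repair genes with 2 kb flanks, grouped by role. Points are ratios and bars are counting intervals of 1 library against 1, dotted lines mark the sizes used for a call and the dashed line marks the median gene. Lig4 lies highest at 1.78 and Rif1 lowest at 0.75.

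Among the ATR genes, Clspn alone was called higher, and the other 5 lay between 0.82 and 1.18. This group had the lowest median of the 7, a log2 ratio of -0.09, and a summed ratio of 1.03 (0.978 to 1.08). The median lay below 0 under each of the 4 other scalings tried, but was 0.28 on the plus strand alone. Clspn encodes Claspin, the adaptor through which ATR activates CHK1 at forks. Over chr4:126556957-126594533 and its flanks it held 616 S-phase and 583 G1-phase reads, a ratio of 1.38 (1.23 to 1.55). The difference lay mainly on the plus strand, with a ratio of 1.58 against 1.104 on the minus strand. The lowest of the group was Etaa1, which encodes an activator of ATR that binds RPA-coated DNA. At chr11:17938753-17953875 it held 285 and 456 reads, a ratio of 0.82 (0.70 to 0.95), with 0.99 on the plus and 0.65 on the minus strand. The megabase around Etaa1 was also lower in S phase, at 0.89.

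Atr, the kinase gene itself, lies at chr9:95857597-95953217 and held 1066 S-phase and 1485 G1-phase reads. Its ratio was 0.94 (0.87 to 1.02), with 0.99 on the plus and 0.88 on the minus strand, and the interval holds 1. Atrip, the partner that brings ATR to RPA, had 162 and 238 reads, which made 0.89 (0.73 to 1.09). Its strands went opposite ways, at 1.55 on the plus and 0.51 on the minus strand, so that plus reads made up 64.2% in S phase and 37.0% in G1 phase. Chek1, the checkpoint kinase downstream of ATR, had a ratio of 0.94 (0.77 to 1.15). Topbp1, which activates ATR at resected ends, had 1.18 (1.04 to 1.34).

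In the ATM and p53 group, 3 genes were higher and none lower, with a median log2 ratio of 0.18 and a summed ratio of 1.111 (1.06 to 1.16). The highest was Mdm2, which encodes the ubiquitin ligase that keeps p53 low. At chr10:117688875-117710758 it held 370 and 353 reads, a ratio of 1.37 (1.18 to 1.59). It was also split by strand, at 2.06 on the plus and 0.90 on the minus strand. Trp53, the gene of p53, was lowest. At chr11:69580348-69591873 it held 162 and 241 reads, a ratio of 0.88 (0.72 to 1.08), with 0.74 on the plus and 1.12 on the minus strand. The other 2 genes called higher were Mre11a, the nuclease of the complex that brings ATM to breaks, at 1.36 (1.21 to 1.52), and Chek2, the kinase downstream of ATM, at 1.27 (1.12 to 1.44). The partners of Mre11a in that complex were not called: Nbn stood at 1.15 and Rad50 at 1.02. Atm, with 919 and 1288 reads, had 0.93 (0.86 to 1.02), close to Atr. Cdkn1a, the p53 target that encodes the inhibitor p21, held the fewest reads of all members, 91 and 107, and its ratio of 1.113 (0.83 to 1.49) was accordingly loose.

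The chromatin group held both a gene well above 1 and the lowest member of all. Trp53bp1 encodes 53BP1, which shields ends from resection. At chr2:121194835-121296354 it held 980 reads in S phase against 834 in the deeper G1 library, a ratio of 1.54 (1.40 to 1.69), with 1.85 on the plus and 1.30 on the minus strand. When the gene was cut into 10 equal parts, all 10 lay above 1, from 1.005 to 3.58. The highest part held 115 and 42 reads. It lay before the start listed for this minus-strand gene, chr2:121271407, which is inside the span. It was also higher when each covered position counted once, 1.54 (1.30 to 1.84). Rif1 encodes the factor that 53BP1 recruits and that also sets replication timing. At chr2:52072815-52126769 it held 422 and 738 reads, a ratio of 0.75 (0.66 to 0.84), with 0.80 on the plus and 0.69 on the minus strand. Of its 10 parts, 2 lay above 1. Counting each covered position once brought Rif1 to 0.94 (0.75 to 1.18), and the megabase around it stood at 1.07.

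H2ax encodes the histone variant phosphorylated at breaks. It was called higher, on 292 and 268 reads that made a ratio of 1.43 (1.20 to 1.69). Nearly all of these reads, 266 and 224, lay in the 2 kb on the left of the gene. The gene body held 4 S-phase and 32 G1-phase reads, a ratio of 0.16 (0.042 to 0.46), which goes the other way. The counted region overlaps Dpagt1, so the value for H2ax is one for the neighbourhood rather than for the gene. Counted regions overlapped another protein-coding gene in 26 of the 41 members, Trp53bp1, Lig4, Prkdc and Atr among them, and reads in the overlap cannot be given to 1 gene. Mdc1, the mediator that binds phosphorylated H2AX, stood just under the threshold at 1.24 (1.08 to 1.43). The ubiquitin ligases that act after it were not called, with Rnf168 at 1.14 and Rnf8 at 1.07. The group's median log2 ratio was 0.25 and its summed ratio 1.19 (1.13 to 1.254).

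End joining held the highest ratio of all 41 genes and the largest read counts. Lig4 encodes the ligase that seals the ends. At chr8:9970020-9977680 it held 147 and 108 reads, a ratio of 1.78 (1.38 to 2.31), with 1.81 on the plus and 1.77 on the minus strand. The surrounding megabase stood at 0.95. Xrcc4, which encodes the partner of LIG4, had 2270 and 3180 reads over chr13:89848914-90089608 and a ratio of 0.93 (0.88 to 0.99). Prkdc encodes the DNA-PK catalytic subunit and was lowest of the group. At chr16:15637444-15842239 it held 1812 and 2601 reads, a ratio of 0.91 (0.86 to 0.97), with 0.89 on the plus and 0.94 on the minus strand. Xrcc4 and Prkdc were the 2 members whose interval stayed below 1 when each covered position counted once. The Ku subunit genes had 1.21 (Xrcc6, Ku70) and 1.08 (Xrcc5, Ku80). Dclre1c, which encodes the hairpin-opening nuclease Artemis, had 1.17. The summed ratio of the group was 0.995 (0.962 to 1.03), because the long genes carry most reads, whereas its median log2 ratio was 0.17.

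Homologous recombination genes lay close together. Exo1, a nuclease of long-range resection, was the only one called higher. At chr1:175880768-175911396 it held 287 and 284 reads, a ratio of 1.32 (1.12 to 1.56), with 1.46 on the plus and 1.19 on the minus strand, while its surroundings stood at 0.99. The lowest was Palb2, which links BRCA1 to BRCA2. At chr7:122107262-122132980 it held 254 and 338 reads, a ratio of 0.98 (0.83 to 1.16), with 1.43 on the plus and 0.63 on the minus strand. Between them were Rbbp8, the gene of the resection factor CtIP, at 1.17, Brca1, which promotes resection, at 1.15, Brca2, a mediator of strand exchange, at 1.15, and the helicase genes Blm at 1.12 and Wrn at 1.05. The interval lay above 1 for 5 of the 7, the median log2 ratio was 0.20 and the summed ratio 1.12 (1.08 to 1.17).

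The Fanconi pathway removes links between the strands of DNA. Its median log2 ratio of 0.08 lay above 0 after scaling to the total but at -0.05 with the median gene set to 1 and at -0.13 against the surrounding megabase, and the summed ratio was 1.096 (1.03 to 1.17). Fanca, a subunit of the core ubiquitin ligase, was called higher. At chr8:123266294-123318651 it held 429 and 440 reads, a ratio of 1.28 (1.115 to 1.46), with 1.21 on the plus and 1.32 on the minus strand. The surroundings of Fanca had almost the same ratio, 1.27. Slx4, the nuclease scaffold, was lowest. At chr16:3979105-4003829 it held 210 and 290 reads, a ratio of 0.95 (0.79 to 1.14), and its strands opposed each other at 1.63 and 0.54. The pair that the core complex modifies stood at 1.13 (Fanci) and 1.02 (Fancd2), and Mus81, a structure-specific nuclease, at 1.06.

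In the AID-linked group, 2 of 3 genes were higher and 1 was lower. Msh6 encodes a mismatch recognition factor that acts on AID-made lesions. At chr17:87975050-87990892 it held 280 and 266 reads, a ratio of 1.38 (1.16 to 1.64), with 1.05 on the plus and 1.75 on the minus strand. Ung encodes the glycosylase that removes uracil made by AID and held 642 and 632 reads, a ratio of 1.33 (1.19 to 1.49). Parp1, which encodes a sensor of single-strand breaks, was lowest. At chr1:180568891-180600999 it held 267 and 446 reads, a ratio of 0.78 (0.67 to 0.91), with 0.72 on the plus and 0.86 on the minus strand. The megabase around Parp1 went the other way, at 1.18, and counting each covered position once gave 0.97 (0.72 to 1.31). The median log2 ratio of the group was 0.41 and its summed ratio 1.16 (1.07 to 1.253).

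Most members sat in regions that were themselves higher in S phase. The megabase around the gene, without the gene, was above 1 for 36 of the 41 (79.0% of all genes), with a median log2 ratio of 0.14, beside 0.12 for all genes. The repair gene exceeded its surroundings in 21 cases and lay under them in 20, against 54.2% of all genes above. Of the members called higher, Lig4 and Exo1 were higher within surroundings of 0.95 and 0.99, whereas Fanca matched its own.

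**Figure D2:**
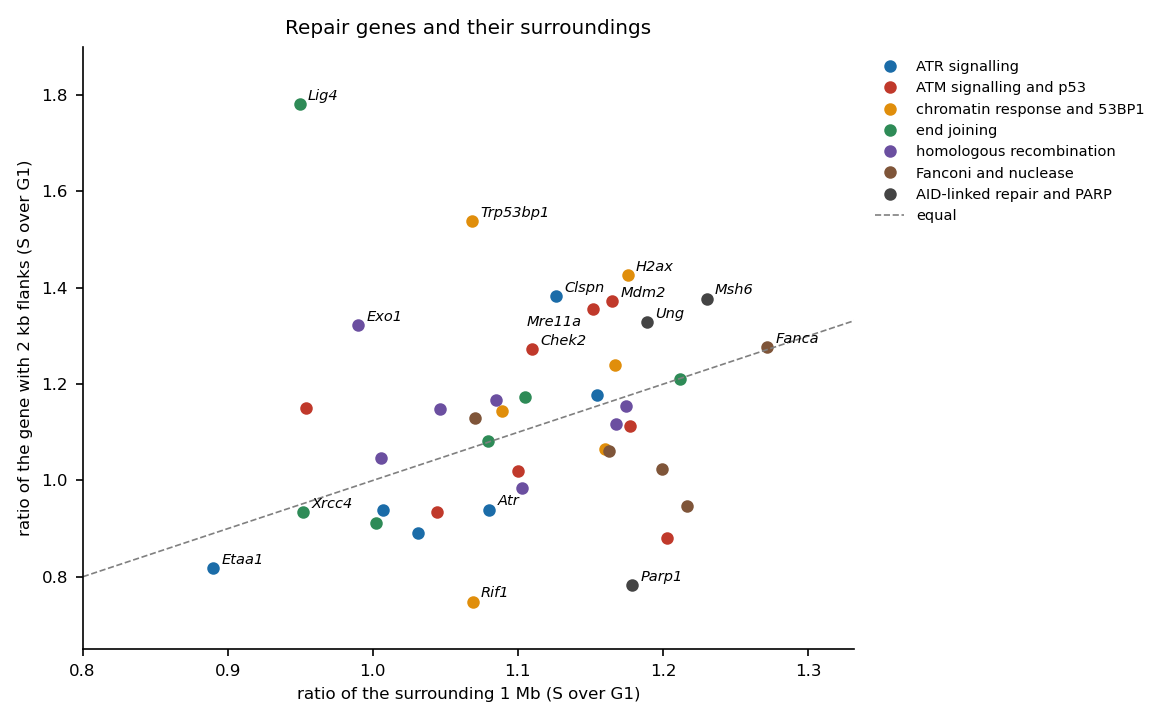
Ratio of each repair gene with its flanks (vertical axis) against the ratio of the megabase around it (horizontal axis), both S phase over G1 phase, 1 point per gene and coloured by role. On the dashed line both are equal: Lig4 at 1.78 lies far above it, Fanca lies on it, and Parp1 at 0.78 lies below it.

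Strands were compared because the free end of a broken fork gives reads on 1 strand and a break with both ends gives both. Both strands were above 1 for 17 members (42.5% of all genes) and below 1 for 7 (16.5% of all genes), so the strands disagreed in the rest. The share of plus-strand reads ran from 36.7% to 75.1% in S phase and from 36.1% to 85.0% in G1 phase. The exact Clopper-Pearson intervals of the share did not overlap between the libraries for 15 members, beside 19.5% of all genes. Such intervals narrow with read number, and the 19.5% was not limited to genes within the read range of the members. Stacked reads make them too narrow as well. Over each whole library the share of plus-strand reads was 49.4% and 49.3%.

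The gene starts held far more break ends than the rest. A start was listed for 32 members, and the window of 1 kb on both sides was compared with the remaining gene and flanks. Per kb, the summed reads in these windows were 7.47 times those of the rest in S phase and 5.25 times in G1 phase, beside 2.88 and 2.12 for all protein-coding genes. The start exceeded the rest in 30 of 32 members in S phase (64.8% of all genes) and 29 of 32 in G1 phase (61.4% of all genes). The median gene gave 4.66 and 3.67, beside 1.40 and 1.27. Reads piled at starts were thus present in quiescent cells too. A local peak, a 1 kb bin that reached 10 times the median bin of its 100 kb neighbourhood, lay in 15 members in S phase (14.9% of all genes) and in 15 in G1 phase (10.0% of all genes). How much of this is set by the activity of the genes was not tested. Whether a gene holds a local peak also depends on its length. The members were longer, at a median of 37.6 kb beside 19.5 kb for all genes, and no share over genes of like length was computed.

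Summed over the members, the libraries differed more at the starts than in the rest. The start windows held 3935 S-phase and 3529 G1-phase reads, a ratio of 1.46 (1.39 to 1.53), while the rest of the same genes stood at 1.03 (1.003 to 1.05). All protein-coding genes showed the same split, at 1.40 and 1.03. Single members differed in the rest in both directions, from 0.55 (0.44 to 0.68) in Etaa1 to 1.67 (1.249 to 2.23) in Lig4. Of 21 start windows with at least 50 reads, 16 were higher (70.5% of all such windows) and 2 were lower (7.90%). The start ratio was above 1 in 26 of 32 members (66.2% of all genes) and that of the rest in 20 (60.1%), and the former exceeded the latter in 25 (61.3%). By group, the start ratio was highest for the ATM and p53 genes, 1.74 (1.56 to 1.95), followed by the chromatin group at 1.66, homologous recombination at 1.49, ATR at 1.38, AID-linked repair at 1.34, end joining at 1.29 and the Fanconi group at 1.26 (1.03 to 1.53). The interval of the chromatin group (1.41 to 1.94) overlaps every other. That of the ATM and p53 genes overlaps the chromatin group and homologous recombination (1.36 to 1.64). It does not overlap those of the ATR, AID-linked, end joining and Fanconi groups, but these intervals cover counting error only and are too narrow. The group ratios are also sums in which 1 gene can weigh heavily. Of the S-phase start reads, Brca1 held 610 of the 931 of its group, Ung 546 of 676, Clspn 304 of 599 and Mdc1 241 of 358. The order of the groups without these genes was not tested.

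**Figure D3:**
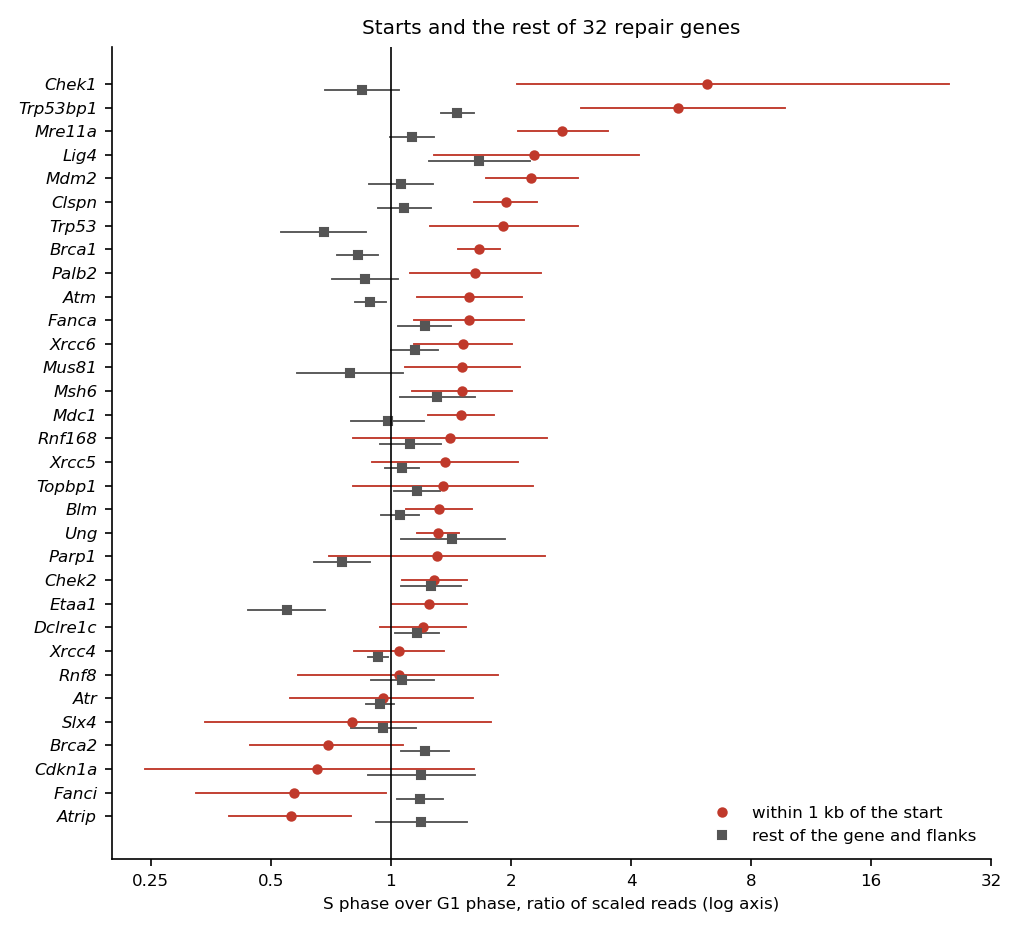
Ratio S phase over G1 phase on a logarithmic axis for the 2 kb window around the start (circles) and for the rest of the gene and flanks (squares) of the 32 repair genes with a listed start, with counting intervals as bars. The start lies to the right of the rest in 25 genes, and Chek1 and Trp53bp1 lie farthest right on few reads.

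Several members that were not called higher over their whole length had a start ratio above 1. Trp53 had 57 S-phase and 39 G1-phase reads at its start, a ratio of 1.91 (1.251 to 2.95), against 0.68 (0.53 to 0.87) in the rest. Atm had 101 and 84, a ratio of 1.57 (1.17 to 2.13), against 0.89 (0.81 to 0.97). Brca1 had 610 and 481, a ratio of 1.66 (1.47 to 1.87), against 0.83 (0.73 to 0.93). Etaa1 had 167 and 175 reads at the start, a ratio of 1.249 (1.004 to 1.55), and 0.55 (0.44 to 0.68) in the rest. For these 4 genes the intervals of start and rest lay on opposite sides of 1. The share of all genes with such a split was not computed. Chek1 showed 19 start reads against 4, a ratio of 6.22 with an interval as wide as 2.07 to 25.1, and Trp53bp1 showed 64 against 16, a ratio of 5.24 (2.99 to 9.70). The start listed for Trp53bp1 lies inside the gene span, and its richest 1 kb bin was centred 18.1 kb before that start. Like Trp53bp1, Mre11a and Mdm2 were called higher over their whole length. At the start Mre11a had 183 and 89 reads (2.69, 2.08 to 3.51), and Mdm2 158 and 92 (2.25, 1.73 to 2.94).

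The opposite was seen in 2 genes whose start interval lay below 1. Atrip held 49 S-phase and 114 G1-phase reads at its start, a ratio of 0.56 (0.39 to 0.79), against 1.19 in the rest. Fanci held 21 and 48, a ratio of 0.57 (0.33 to 0.97), against 1.19 (1.04 to 1.35) in the rest. In Chek2, Dclre1c and Ung the start ratios of 1.29, 1.20 and 1.31 had intervals that overlapped those of the rest, at 1.26, 1.17 and 1.43. The start window of Atr was thinly covered. Its 27 and 37 reads made a ratio of 0.96 (0.56 to 1.61). A start of another gene lay within 1 kb for 9 of the 32, in each case on the opposite strand, among them Npat 376 bases before Atm, Wrap53 109 bases before Trp53, Nbr1 152 bases before Brca1 and Abhd13 37 bases before Lig4. Reads between such a pair cannot be given to 1 gene.

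Within the window the ends lay just before the start. The last 100 bases held 1445 S-phase and 1145 G1-phase reads over the 32 genes, 21.98 and 13.31 per gene per 10000000 reads, a ratio of 1.65 (1.53 to 1.79). The same bases of all protein-coding genes held 5.24 and 3.28. A large part of the reads of the 32 genes there came from Brca1 (348 and 264) and Clspn (267 and 170). From 300 to 101 bases before the start the reads pointed away from the gene: 81.6% in S phase and 78.5% in G1 phase ran upstream, against 61.1% and 59.7% for all genes. Few genes weighed heavily here. Of 675 S-phase and 545 G1-phase reads in this zone, Blm held at least 153 and 89 and Chek2 at least 85 and 69. Beyond 1 kb the signal was low on both sides. The ratio was 1.38 (1.17 to 1.62) from 2 to 1 kb before the start, beside 1.096 for all genes, and 1.099 (0.93 to 1.29) from 1000 to 1999 bases into the gene. In 15 of 19 genes in S phase and 14 of 19 in G1 phase, the median end that ran upstream lay before the median end that ran downstream, at medians of -88 and -35 bases in S phase and -95 and -36 in G1 phase. Ends that run upstream lying before ends that run downstream is the order that a break with both ends and a gap would give. This order was not counted over all protein-coding genes, so it cannot be called particular to the repair genes. The 19 genes, those with at least 50 start reads in a library, were not the same in both. In Brca1 the median upstream end lay at -786 bases in S phase, beyond the start of Nbr1 152 bases before that of Brca1. Whether the ends of both strands come from the same breaks was not tested.

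**Figure D4:**
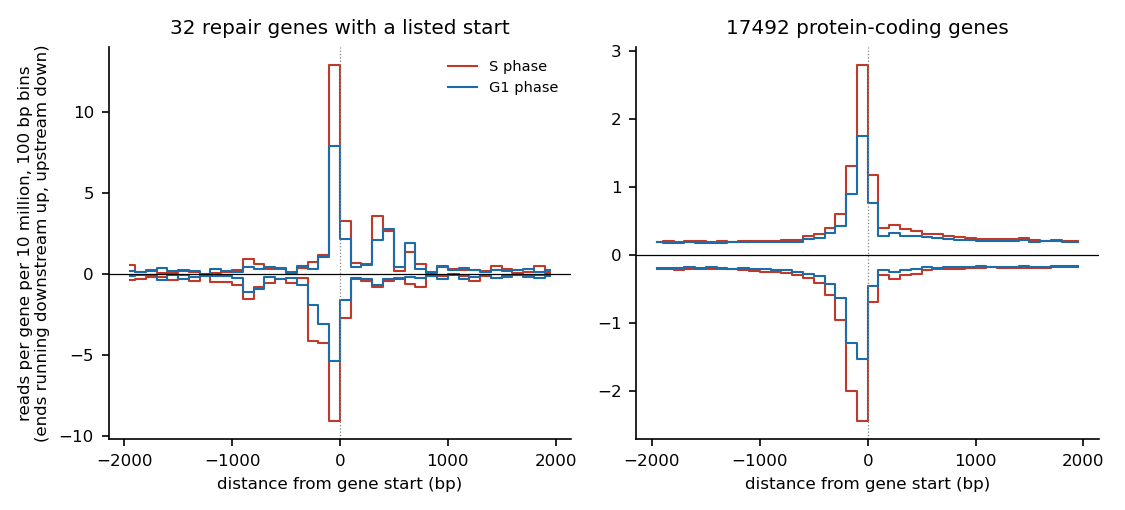
Break-end reads per gene per 10000000 reads in 100 bp bins from 2 kb before to 2 kb after the start, for 32 repair genes (left) and all 17492 protein-coding genes with a listed start (right). Ends running downstream are drawn upward and ends running upstream downward, and the vertical scales differ. Both strands peak in the last 100 bases before the start and the S-phase line (red) lies above the G1 line (blue) there, while the bump at about 400 bases in the left panel comes mostly from Ung.

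The stretches of promoter that held these ends are shown for 5 genes, from RefSeq (GRCm38.p6, the assembly behind mm10), 5′ to 3′ on the strand of the gene and limited to bases before the start and outside annotated genes. Capitals mark CCAAT boxes (ATTGG on the other strand), GC boxes (GGGCGG or CCGCCC) and the E2F form TTTCCCGC. Clspn, Mdm2 and Msh6 were taken by a rule on start reads among the genes called higher that had a long enough stretch outside annotated genes. That condition left out Ung, Mre11a and Chek2. Their richest 100 bp bins near the start held 247, 105 and 85 S-phase reads, against 42 in Msh6. Brca1 and Mdc1 were added after their values were seen, because each has 1 position that was highest in both libraries.
Clspn: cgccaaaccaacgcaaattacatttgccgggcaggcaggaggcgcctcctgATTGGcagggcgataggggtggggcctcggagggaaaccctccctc
Mdm2: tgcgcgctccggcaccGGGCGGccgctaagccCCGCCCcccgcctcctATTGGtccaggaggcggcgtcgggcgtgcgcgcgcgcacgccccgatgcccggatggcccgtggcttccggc
Msh6: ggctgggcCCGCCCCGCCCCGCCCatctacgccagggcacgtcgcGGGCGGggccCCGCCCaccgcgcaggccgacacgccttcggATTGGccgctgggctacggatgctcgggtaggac
Brca1: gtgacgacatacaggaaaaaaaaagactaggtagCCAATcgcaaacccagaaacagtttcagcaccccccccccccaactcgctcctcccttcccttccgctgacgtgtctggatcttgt
Mdc1: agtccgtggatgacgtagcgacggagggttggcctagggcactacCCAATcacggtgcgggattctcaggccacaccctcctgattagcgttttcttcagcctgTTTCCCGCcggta

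The Clspn stretch, chr4:126556860-126556956 on the plus strand, held 264 S-phase and 166 G1-phase reads. It runs from 120 to 24 bases before the start. Ends that ran into the gene peaked 45 bases before the start in S phase (35 reads) and 47 bases before it in G1 phase (37 reads), and ends that ran upstream peaked at 58 bases in both libraries. The CCAAT box of Clspn begins 69 bases before the start, so both piles lie between it and the gene.

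In the Mdm2 stretch, chr10:117710759-117710878 on the minus strand, 118 and 54 reads were found. The highest positions, 62 and 50 bases before the start, were the same in both libraries, with 25 and 14 reads at the former. Most of these ends ran upstream, 97 of 118 in S phase and 42 of 54 in G1 phase, which puts them on the plus strand where Mdm2 was higher. Msh6, with chr17:87974930-87975049 on the plus strand, held 51 and 31 reads there, mostly running upstream (38 and 27).

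Brca1 gave the highest single pile near a start among these 5. Its stretch, chr11:101551956-101552075 on the minus strand, held 348 and 264 reads. One position, 26 bases before the start, held 120 S-phase and 59 G1-phase reads, all running into the gene. In Mdc1, chr17:35841378-35841494 on the plus strand, 115 and 106 reads were found, and the position 94 bases before the start held 23 and 32 that ran upstream. This pile lies before the CCAAT box of Mdc1, which begins at 75 bases, and the E2F form begins at 16 bases.

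**Figure D5:**
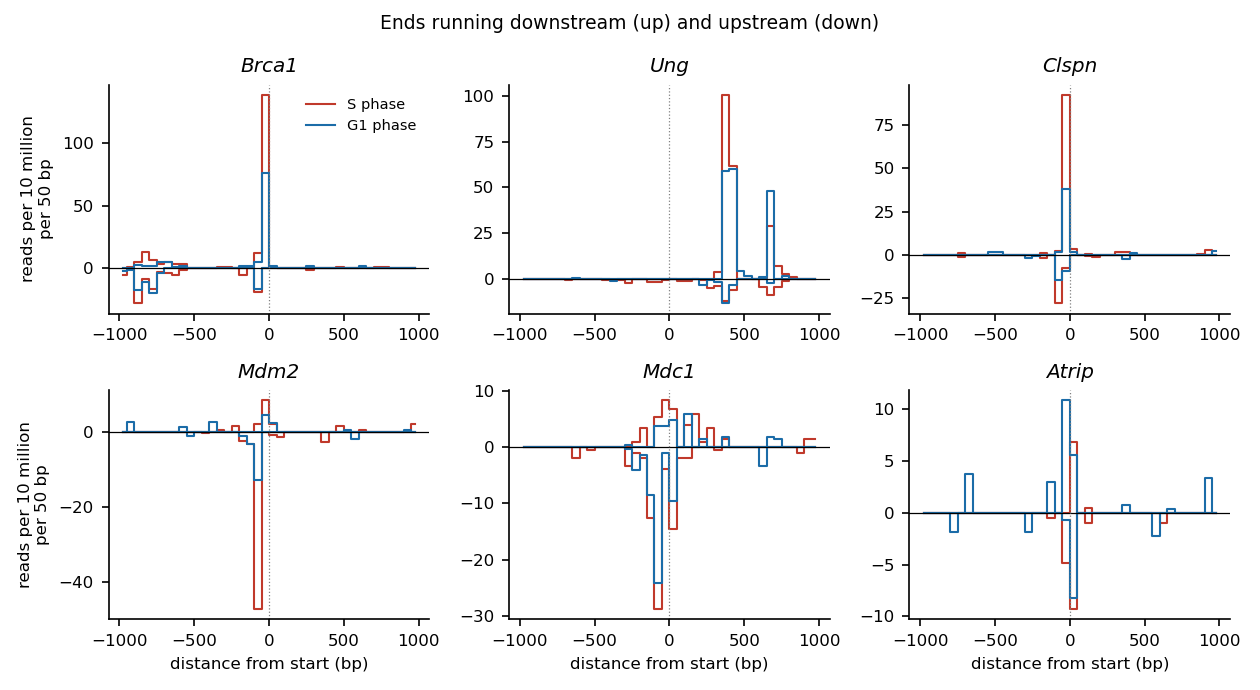
Break-end reads per 10000000 reads in 50 bp bins within 1 kb of the start of 6 repair genes, S phase in red and G1 phase in blue, with ends running downstream drawn upward and ends running upstream downward. Vertical scales differ between panels. Clspn, Mdm2 and Brca1 have a pile just before the start that is taller in S phase, Ung has its piles inside the gene, and Atrip has few reads.

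Ung was arranged differently. Its start window held 546 S-phase and 544 G1-phase reads, 31.1 and 33.8 times the rest per kb, but few lay before the start. Ends that ran downstream had their median 399 (S phase) and 400 (G1 phase) bases into the gene, and those that ran upstream 391 bases in both. Plus-strand reads made up 75.1% of the S-phase and 85.0% of the G1-phase reads, and the ratio was 2.21 (1.70 to 2.87) on the minus and 1.17 (1.04 to 1.33) on the plus strand.

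For several members the call rested on the richest 1 kb bin. Without it the ratio was 1.113 for Clspn, 1.012 for Mdm2, 1.17 for Mre11a, 1.22 for Fanca, 1.24 for Ung and 0.707 for H2ax, all under the size for a call. Counting each covered position once also brought Clspn, Mdm2 and Fanca under it, each at 1.13. Lig4, Trp53bp1, Chek2, Exo1 and Msh6 stayed past it both ways. With positions counted once, however, the intervals of Chek2 (0.97 to 1.65), Exo1 (0.95 to 1.74) and Msh6 (0.97 to 1.91) held 1, and against the surrounding megabase Chek2 (1.147) and Msh6 (1.120) were under it.

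The highest position of a member lay within 1 kb of the start in 19 members in S phase and 16 in G1 phase. It was the very same base in both libraries in 5: Mdc1, Brca1, Palb2, Ung and Mdm2. Motifs were counted on both strands over the 250 bases before the start of each listed promoter. CCAAT was found in 17 of the 32 members, against 33.8% of all 32851 promoters, and GGGCGG in 19, against 32.7%. One of the E2F forms TTTGGCGC, TTTCCCGC, TTTCGCGC and TTTGCCGC was found in 5, namely Chek2, Mdc1, Brca2, Xrcc6 and Topbp1, against 1.86% of all promoters. The sets compared are unlike. Members were taken at their outermost listed start. The background was every listed promoter, not limited to protein-coding genes or to a single start per gene. Shares over the starts of protein-coding genes alone were not computed, so no enrichment can be read from these counts. These are matches of letters and not measured binding.

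Members were also compared with 72 further genes of the same pathways. Their list was not chosen for how these genes differed, but earlier results of these data were known when it was made. All 72 were matched, with a median log2 ratio of 0.24. Of them 25 were higher (29.0% of all genes), 1 was lower (9.81%) and 46 were neither. The order of the groups was not that of the members: the further ATR genes had the highest median log2 ratio of the 7 lists, 0.44, followed by end joining at 0.40, the chromatin list at 0.28, the Fanconi list at 0.23, ATM and p53 at 0.21, AID-linked repair at 0.19 and homologous recombination at 0.17. The ATR list held 6 higher and 1 lower of 11, from Rpa3, a subunit of the single-strand binding protein RPA, at 1.56 (1.35 to 1.81) to Rad1, of the 9-1-1 clamp, at 0.70 (0.55 to 0.88). For ATM and p53, 2 of 8 were higher, with Tti1, a chaperone of these kinases, at 1.32 and the acetyltransferase gene Kat5 at 1.08 as the extremes. In the chromatin list 3 of 8 were higher, and the shieldin subunits Mad2l2, at 1.87 (1.55 to 2.27), and Shld1, at 0.95, stood at its ends. End joining had 5 of 8 higher, from Xrcc1, a scaffold of single-strand break repair, at 1.76 (1.498 to 2.07) to Aplf at 0.93. Homologous recombination had 2 of 14 higher, from Rmi1, a partner of BLM, at 1.34 to Xrcc2 at 0.81. Among Fanconi genes 5 of 12 were higher, from Slx1b, the nuclease partner of SLX4, at 2.02 (1.56 to 2.62) to Fancg at 0.88. The last list had 2 of 11 higher, from Polb, the base excision polymerase, at 1.45 (1.24 to 1.70) to Parp2 at 0.82.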

How the data were processed

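Deposited values were raw counts of read starts at each base, in 1 bedGraph track per strand and phase per the file headers, without normalization. The authors listed Bowtie 1.1.2, SAMtools 1.11, bedtools and mm10 in the submitters' processing notes. The handling of duplicates and of reads with several matches is not given in the sources used here, and no molecular identifiers were used. Genes came from RefSeq, GRCm38.p6, and promoters with strand and start from the same assembly, which listed a start for 32 of the 41 members. Here reads were summed per gene with 2 kb flanks, scaled to chromosomes 1 to 19, and given as log2 ratios with a pseudocount of 1, with Python 3.11.15, numpy 2.4.6, pandas 2.3.3 and scipy 1.17.1. Plots used matplotlib 3.10.9. Surroundings were 500 kb on both sides. All members are named, and the highest and lowest of each group and Atr are given in full; of other pathway genes, the highest and lowest. The rule for promoter sequences also took Fanca, whose stretch outside genes held 4 and 0 reads and is not shown; the limit to bases outside genes was set after the data were seen. The members and lists were chosen with earlier results of these data known. A single library per group allowed no test.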

Additional observations from a re-analysis of the deposited data

How the results depend on the processing

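After scaling to the total, the median log2 ratio was 0.176, with 11 genes called higher, 2 lower, 19 intervals above 1 and 5 below, a spread of 0.500 between group medians and a start ratio of 1.46. Setting the median gene to 1, which shifts all genes by 0.13, gave 0.041, 5 higher, 11 above, 9 below, a Fanconi median of -0.051 and a start ratio of 1.33. Against the surrounding megabase these were 0.0033, 3 higher, 4 lower, 10 above, 8 below, a spread of 0.293, -0.133 for Fanconi and 1.31 at starts. Counting each position once gave 0 lower, 7 above, 2 below, -0.014 for Fanconi and 1.35 at starts. Capping stacks gave a median of 0.147 and 5 kb flanks 0.144. Without the richest 1 kb bin of each gene the median was 0.081, with 5 higher, 4 lower, a spread of 0.295, an ATR median of 0.0087 and H2ax at 0.707. The plus strand alone gave a median of 0.229, a spread of 0.217 and an ATR median of 0.285. The minus strand alone gave 0.068, 5 lower, a spread of 0.968 and Mdm2 at 0.904. Without flanks these were 0.069, 7 higher, 6 lower, 10 above, 10 below, a spread of 0.208 and H2ax at 0.164. At a ratio of 1.5, 2 genes were higher and 0 lower. Trp53bp1 and Lig4 were past the size for a call in all 13 alternatives run on single genes. Of gene ratios under an alternative, 443 of 533 stayed within the counting interval of the main value, and 55 lay on the other side of 1, 3 of them of genes called higher or lower. Chosen after the data were seen, a 0.5 kb start window gave 1.52, leaving out Brca1 and Ung 1.45, and leaving out windows that overlap another gene 1.44 over 20 members. With 1 library per group, none of this replaces replicates.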
